A study of Mus musculus with 28 samples.

Results

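The clustered protocadherins of the mouse are 58 genes in 3 neighbouring clusters on chromosome 18, out of 49554 genes in the RefSeq table of the mm10 assembly on chromosomes 1 to 19 and X. They were taken by symbol, as all genes on that chromosome whose symbol starts with Pcdha, Pcdhb or Pcdhg. The alpha cluster has 14 members at chr18:36930285-37188897, the beta cluster 22 members at chr18:37264998-37521419 and the gamma cluster 22 members at chr18:37661775-37841873. The span from the first to the last member covers 911589 bp and holds 183 windows of 5 kb, of which 41 lie between the clusters. In the table, the 14 alpha members have 14 different starts but 4 ends, and the 22 gamma members have 22 starts and 5 ends. The 22 beta members share neither, and their 5′ end was assumed to lie on the same side as that of the others. Signal was therefore read in the 5 kb windows and, for each member, in the region 2 kb on both sides of its own 5′ end, called the 5′ region here.

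The study measured histone marks with ChIP-seq in B16OVA melanoma cells (B16) and in MC38 colon adenocarcinoma cells. Cells of each line carried either the empty pCRISPR-v2-puro vector (control) or the same vector with a guide RNA against Setdb1 (Setdb1 KO), and all were cultured with puromycin. H3K9me3 and H3K9Ac were precipitated from separate samples of cells, after digestion with micrococcal nuclease and sonication. Each of the 4 groups has 3 numbered replicates per mark, which makes 24 libraries. The labels do not say whether replicates are separate cultures, or whether a KO line is a clone or a pool, so p-values measure the spread between these libraries only. The 4 input samples were not analysed here, and the loss of SETDB1 protein cannot be checked from these marks. According to the series' design text, the marks were of interest at loci where exons join transposable elements.

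Clustered protocadherins are adhesion proteins of the cell surface, best known from neurons, where different combinations let a cell tell its own branches from those of others. Each alpha and gamma gene has its own promoter and large variable first exon, which is spliced to constant exons shared by its whole cluster, whereas each beta gene is a single exon. Promoters are chosen one by one, in contact with distant enhancers through CTCF and cohesin, and the C-type members at the end of the alpha and gamma clusters follow other rules than the rest. SETDB1 is a methyltransferase that places H3K9me3, a mark of silent chromatin, and in neurons it is known to guard the folding of this locus. H3K9Ac is found at active promoters and enhancers.

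The deposited files list islands, the stretches in which SICER found more reads than expected, with their read counts. A value of 0 below therefore means that no island was called there, not that no read fell there, and no limit can be set on it. All levels are reads per 1000000 island reads of the library (RPM), scaled by TMM factors. The libraries hold 15200766 to 45419584 island reads for H3K9me3 and 28453371 to 78087809 for H3K9Ac. H3K9me3 islands covered 312 ± 23.4 Mb of the genome in B16 control, 401 ± 32.2 Mb in B16 KO, 380 ± 62.0 Mb in MC38 control and 407 ± 177 Mb in MC38 KO (mean ± SD, n = 3 each), and MC38 KO replicate 3, with 215 Mb, stood lowest. The labelled cell types were compared with marker lists through H3K9Ac at 5′ regions. The summed level of 10 melanocyte markers was 157 to 177 RPM in the B16 controls and 30.4 to 41.3 RPM in the MC38 controls. For 10 colon epithelium markers it was 17.1 to 35.7 RPM against 43.5 to 47.6 RPM, but the defining markers Epcam and Cdx2 had group means under 1 RPM in both lines.

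The 2 marks took different places in the locus. H3K9me3 lay over parts of the beta cluster and of the DNA between the beta and gamma clusters in all 12 libraries. In the order of replicates 1, 2 and 3, its level over the span of the beta cluster, which touches 53 windows, was 191, 175 and 113 RPM in B16 control. It was 118, 138 and 132 RPM in B16 KO, 120, 112 and 119 RPM in MC38 control and 105, 196 and 93.0 RPM in MC38 KO. The 4 groups overlapped there. The gap between beta and gamma carried 122 to 148 RPM in B16 control, 106 to 151 RPM in B16 KO, 93.6 to 112 RPM in MC38 control and 67.2 to 170 RPM in MC38 KO. Over the span of the alpha cluster, which touches 52 windows, the mark was lower and varied widely. It ranged from 16.7 to 61.9 RPM in B16 libraries and from 19.04 to 104 RPM in MC38 libraries. H3K9Ac was highest over the span of the gamma cluster, which touches 37 windows, with 42.8 to 132 RPM in the 12 libraries. It reached at most 37.4 RPM over beta and 16.6 RPM over alpha.

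**Figure D1:**
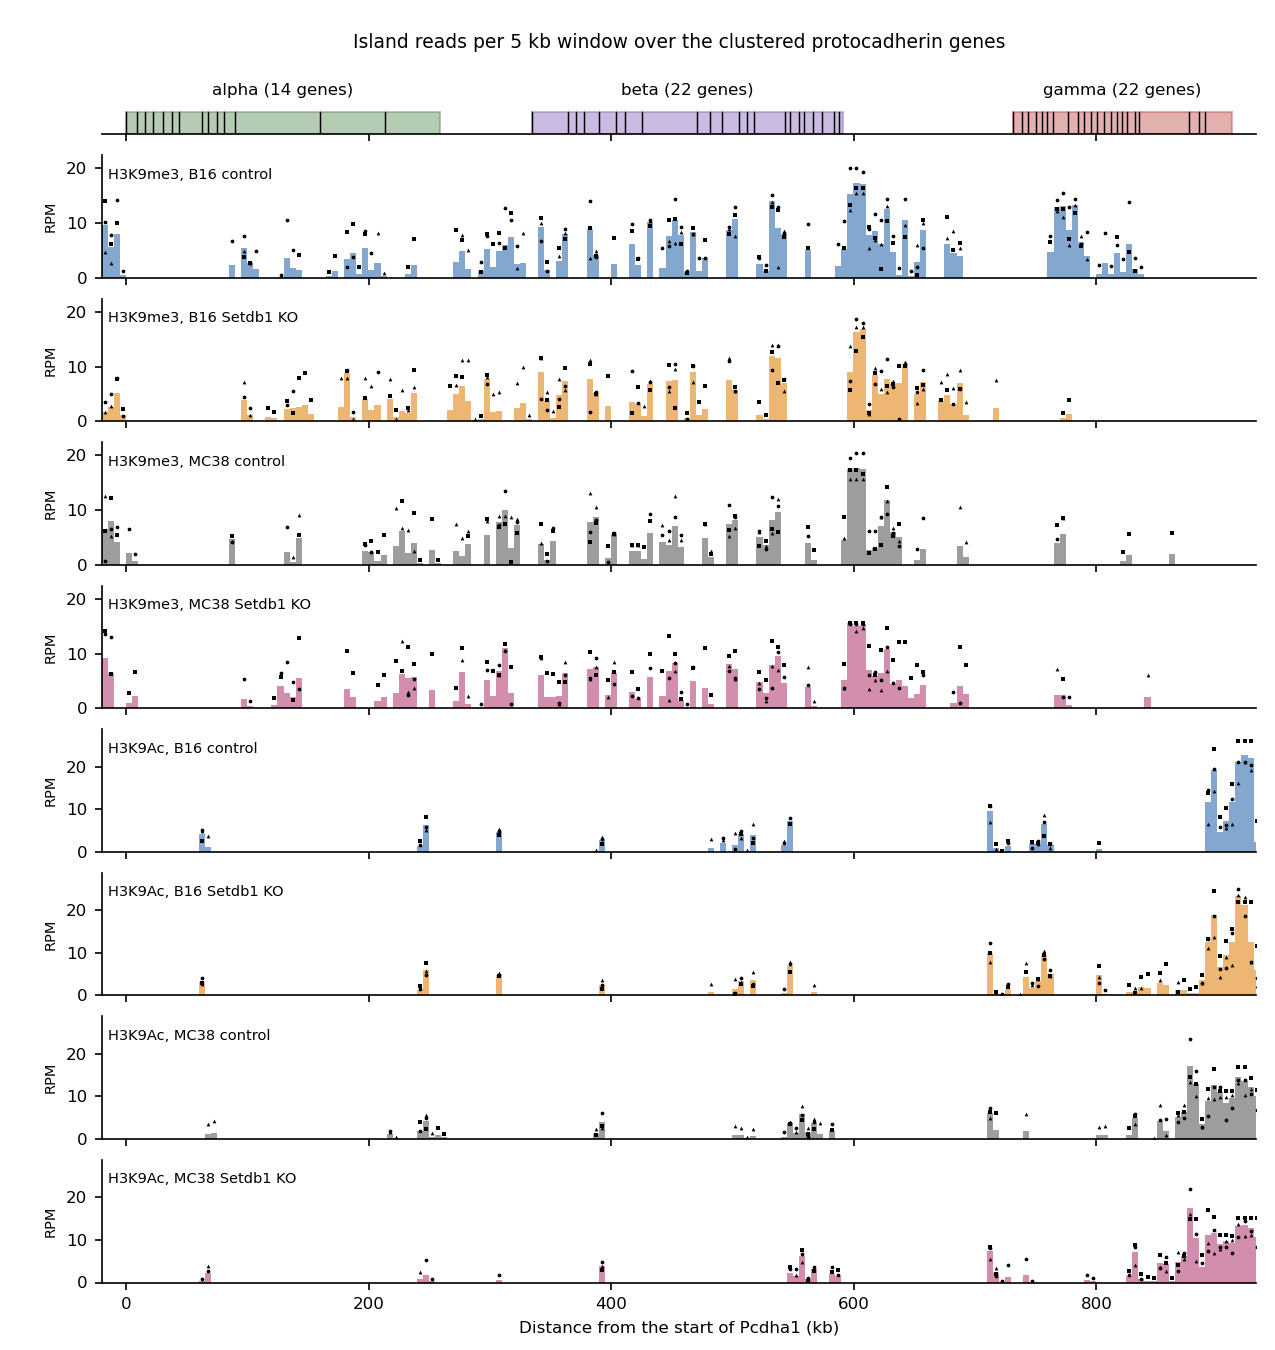
Level of each mark (RPM) in 5 kb windows along the locus, by distance in kb from the start of Pcdha1, with 1 row per mark and group. Bars are means of 3 libraries, points are libraries, and the spans on top are the clusters with a tick at each member. H3K9me3 lies over parts of the beta cluster and the gap behind it in all 4 groups. In the gamma cluster it appears mainly in B16 control, whereas H3K9Ac is highest there.

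Of the 183 windows, 9 had an H3K9me3 island in all 12 libraries, 5 of them in the beta cluster and 4 between clusters. The most constant stretch was chr18:37530001-37540000, just behind the last beta gene, where the 12 libraries ranged from 12.9 to 20.4 RPM in the first of its 2 windows and from 14.7 to 20.4 RPM in the other. Within the beta cluster, the window at chr18:37460001-37465000 held 15.2, 12.9 and 13.9 RPM in B16 control, 9.34, 12.7 and 14.03 in B16 KO, 12.5, 6.58 and 5.77 RPM in MC38 control and 3.70, 12.3 and 7.67 RPM in MC38 KO. Every library had an island there, and the groups overlapped in part. For H3K9Ac, 6 windows had an island in all 12 libraries, of which 4 were gamma windows.

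The beta 5′ regions were largely free of H3K9me3 while the DNA around them carried it. In B16 control, islands covered 2.90 ± 1.50% of the beta 5′ regions and 29.6 ± 7.65% of the rest of the cluster (mean ± SD, n = 3). The values were 1.58 ± 0.89% and 28.5 ± 2.04% in B16 KO. In MC38 they were 2.01 ± 1.40% and 24.4 ± 1.75% in control and 3.24 ± 1.45% and 28.3 ± 12.2% in KO. The 5′ regions had the lower share in each of the 12 libraries. The alpha cluster had the same order, with group means of 0 to 1.02% in 5′ regions and 7.56 to 11.4% elsewhere. H3K9Ac over beta went the other way, with group means of 10.4 to 13.8% in 5′ regions and 0.06 to 0.63% in the rest. These shares describe the islands and were not tested.

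**Figure D2:**
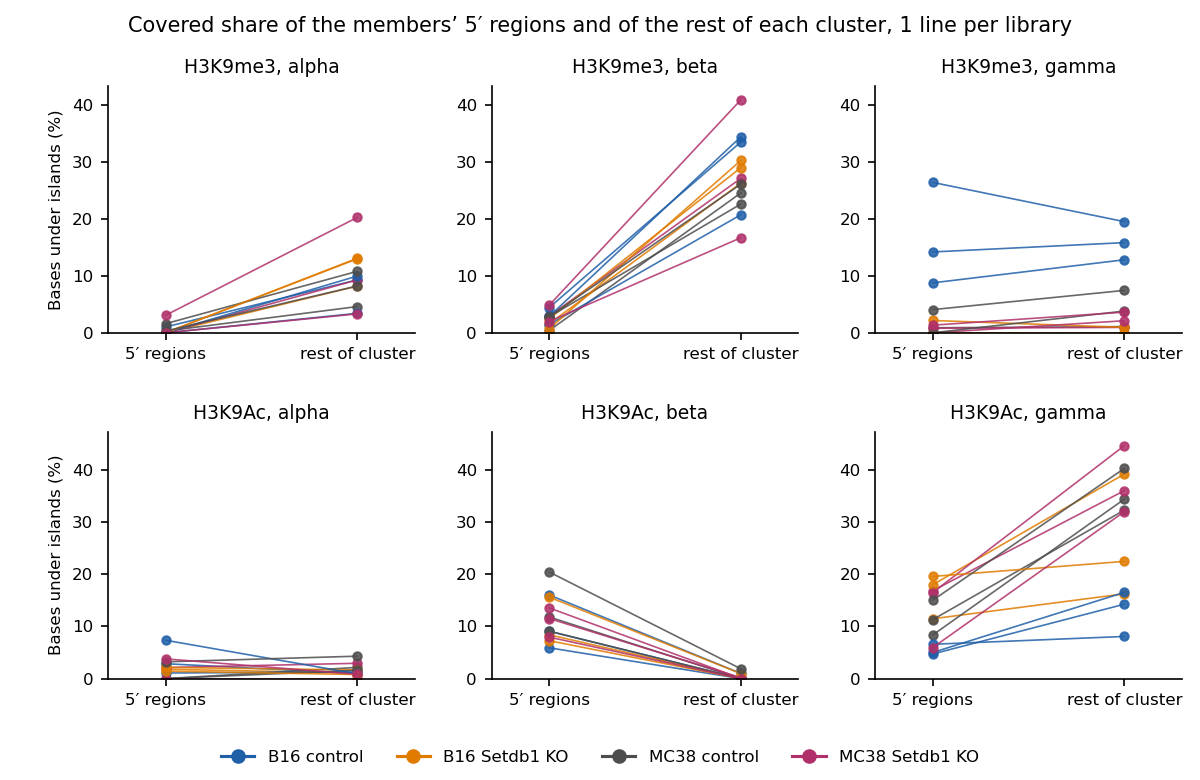
Share of bases under islands (%) in the 5′ regions of members and in the rest of each cluster, 1 line per library, for both marks. H3K9me3 covers less of the beta 5′ regions than of the rest of that cluster in every library, whereas in the gamma cluster of B16 control both shares are near 16%.

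For H3K9me3, the gamma shares of the B16 controls lay closer together. In B16 control, H3K9me3 covered 16.5 ± 9.04% of the gamma 5′ regions and 16.1 ± 3.35% of the rest. In B16 KO both group means were under 1%.

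Most members had no island of a given mark at their 5′ region in any library. For H3K9me3 these were 11 of 14 alpha, 13 of 22 beta and 13 of 22 gamma members, and for H3K9Ac 11 alpha, 9 beta and 9 gamma members. Neither mark was called in any library at 18 of the 58, among them Pcdha1, Pcdhac1, Pcdhb1 and Pcdhga1, which includes the first member of each cluster by position. Both marks occurred somewhere among the libraries at 10 members, and 1 member, Pcdhb5, had H3K9Ac in all 12 libraries. Members that passed the minimum of 10 reads on average numbered 10 for H3K9me3 (0 alpha, 3 beta, 7 gamma) and 27 for H3K9Ac (2, 12 and 13). Only these could be tested, and those with islands in few libraries passed through the group in which they were high.

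The H3K9me3 block of the gamma cluster was called in the B16 controls and hardly anywhere else. Over the span of the gamma cluster the level was 121, 70.1 and 53.7 RPM in B16 control, from 2821, 1126 and 1082 reads. It was 0, 5.48 and 0 RPM in B16 KO, where 1 library had a single island of 99 reads. MC38 control had 4.66, 29.6 and 8.59 RPM, and MC38 KO had 4.05, 5.35 and 13.2 RPM. All 3 B16 controls lay above all 9 other libraries. The B16 controls had 9, 5 and 4 islands in the cluster, the longest of 14.8 kb, and the other groups 0 to 4. In covered length, the B16 controls had 23.1, 15.2 and 10.99% of the cluster under islands and the B16 KO libraries 0, 1.55 and 0%. Over the whole genome, B16 KO libraries had more H3K9me3 under islands than B16 controls (the covered lengths given above). By replicate number they also held more island reads, with 27155542, 18635578 and 23614143 against 22738345, 15200766 and 16588008. The part of depth in the covered lengths was not tested. The sums over the gamma cluster carry no p.

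**Figure D3:**
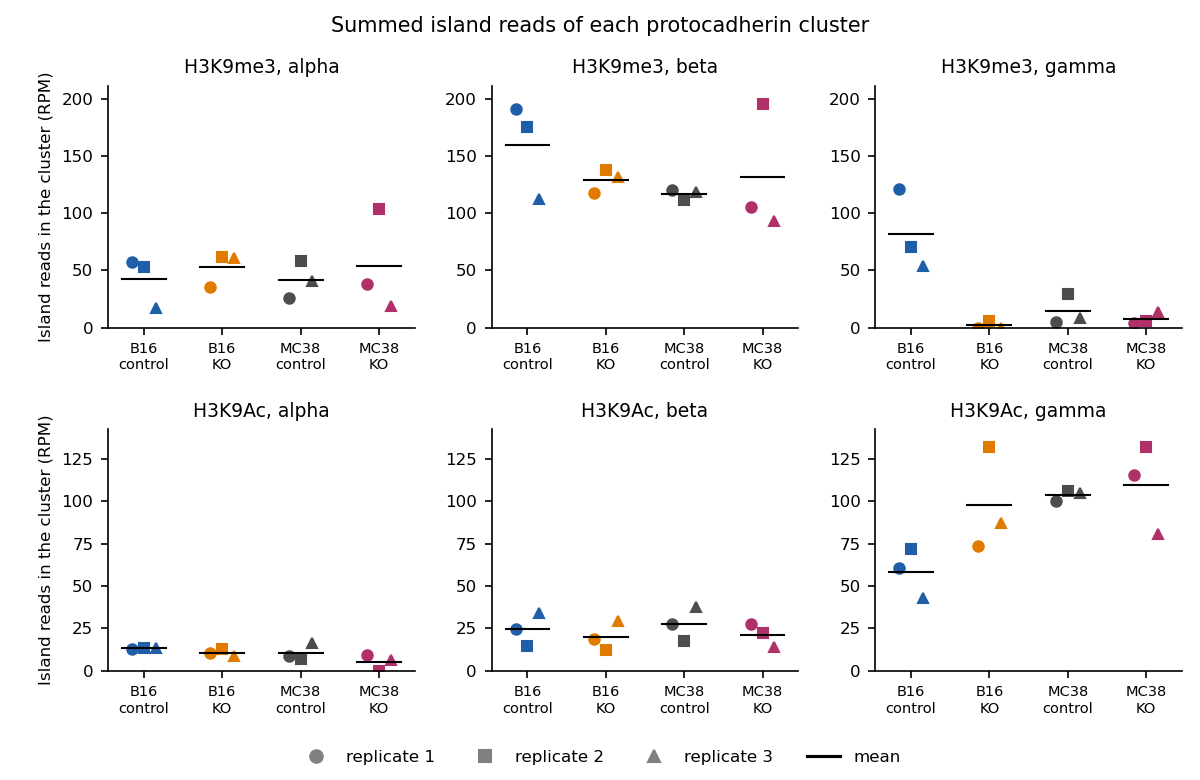
Level of each mark (RPM) summed over the span of the alpha, beta and gamma clusters, 1 point per library (shapes are replicate numbers) with a line at the group mean. H3K9me3 over gamma is 53.7 to 121 RPM in the 3 B16 controls and 0 to 29.6 RPM in the other libraries, whereas the groups overlap over alpha and beta.

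The core of the block was chr18:37695001-37720000, a run of 5 windows between the 5′ ends of Pcdhga5 and Pcdhgb4. The first window held 14.2, 12.6 and 12.2 RPM in B16 control, 0, 0 and 0 in B16 KO, 4.66, 7.31 and 0 in MC38 control and 0, 0 and 7.15 in MC38 KO. In the fourth, at chr18:37710001-37715000, the B16 controls held 14.5, 11.9 and 13.4 RPM, and no island was called in the 9 other libraries. In the last, at chr18:37715001-37720000, the B16 controls held 6.13, 5.79 and 7.64 RPM and again no other library had an island. In all 5 windows the B16 controls lay wholly above the B16 KO libraries. With edgeR's quasi-likelihood test, the adjusted p of the Setdb1 KO in B16 was 0.486, 0.642, 1.00, 0.479 and 0.573 for the 5 windows in order, so none was called.

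The variable genes at the core form a row of A-type and B-type members whose first exons encode ectodomains of differing binding specificity. Pcdhga5, at the upstream edge, had 10.1, 10.1 and 2.13 RPM of H3K9me3 at its 5′ region in B16 control, none in B16 KO, 2.03, 0.506 and 0 RPM in MC38 control and 0, 0 and 3.25 RPM in MC38 KO. Pcdhga6 had 9.86, 5.29 and 5.81 RPM in B16 control, against 0, 3.71 and 0 RPM in B16 KO, no island in MC38 control, and 1.77 RPM in 1 of 3 MC38 KO libraries. At Pcdhga7 the B16 controls held 5.92, 4.54 and 5.21 RPM and at Pcdhgb4 8.96, 2.18 and 7.25 RPM, and neither had an island in any other group. At all 4 members the B16 controls lay above the B16 KO libraries without overlap.

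Farther downstream the block was patchy among the B16 controls. Pcdhga9 had an island in replicate 1 only (8.40 RPM), Pcdhga10 in replicates 1 and 2 (5.96 and 7.47 RPM) and Pcdhga11 in replicate 1 (11.1 RPM) and in MC38 control replicate 2 (7.99 RPM). Pcdhgb8, a pseudogene in the table, held 2.23 and 1.74 RPM in replicates 1 and 2, and Pcdhga12 4.03 RPM in replicate 1. The remaining 13 gamma members, among them Pcdhga1 to Pcdhga4 and the C-type members Pcdhgc3, Pcdhgc4 and Pcdhgc5, had no H3K9me3 island at the 5′ region in any library. Replicate 1 held most of these downstream islands, whereas the core was present in all 3 B16 controls.

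None of these differences between Setdb1 KO and control in B16 passed the test over all features. Of the 10 members tested for H3K9me3, edgeR called 0 (background 0.203% of 19168 5′ regions higher and 0.047% lower), 4 had an unadjusted p under 0.05, DESeq2 called 1 lower and limma 2 lower. The adjusted p was 0.638 for Pcdhga5, Pcdhga7 and Pcdhgb4 and 1.00 for Pcdhga6. Groups did not overlap at 4 members, all gamma and all lower in KO, against 5.12% of all 5′ regions tested, and at 0 that were higher, against 5.69%. Of the 96 windows of the locus tested, edgeR called 0 (background 0.294% of 269906 higher and 0.0915% lower), 9 had an unadjusted p under 0.05, DESeq2 called 14 and limma 2. Groups did not overlap at 10 windows that were lower in KO, 5 of them gamma, against 4.7% of all windows, and at 1 beta window that was higher, against 4.93%.

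The pattern of an island in all 3 B16 controls and in no B16 KO library was held by 3 of the 37 gamma windows (8.11%), against 0.626% of all windows of the genome. Of the 3188 windows with that pattern that passed the filter and were tested, 246 (7.72%) were called by edgeR. Of the 300 among them with a mean of at least 10 RPM over the B16 controls, 34 (11.3%) were. The median difference, B16 KO minus control, was −5.50 RPM over the 12 gamma windows tested, with 11 below 0 and none above, −1.14 RPM over 31 beta windows and 0.259 RPM over 23 alpha windows, beside 0 over all windows tested. These medians describe windows that had passed the filter. Without B16 control replicate 3, edgeR called 1 window of the locus.

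**Figure D4:**
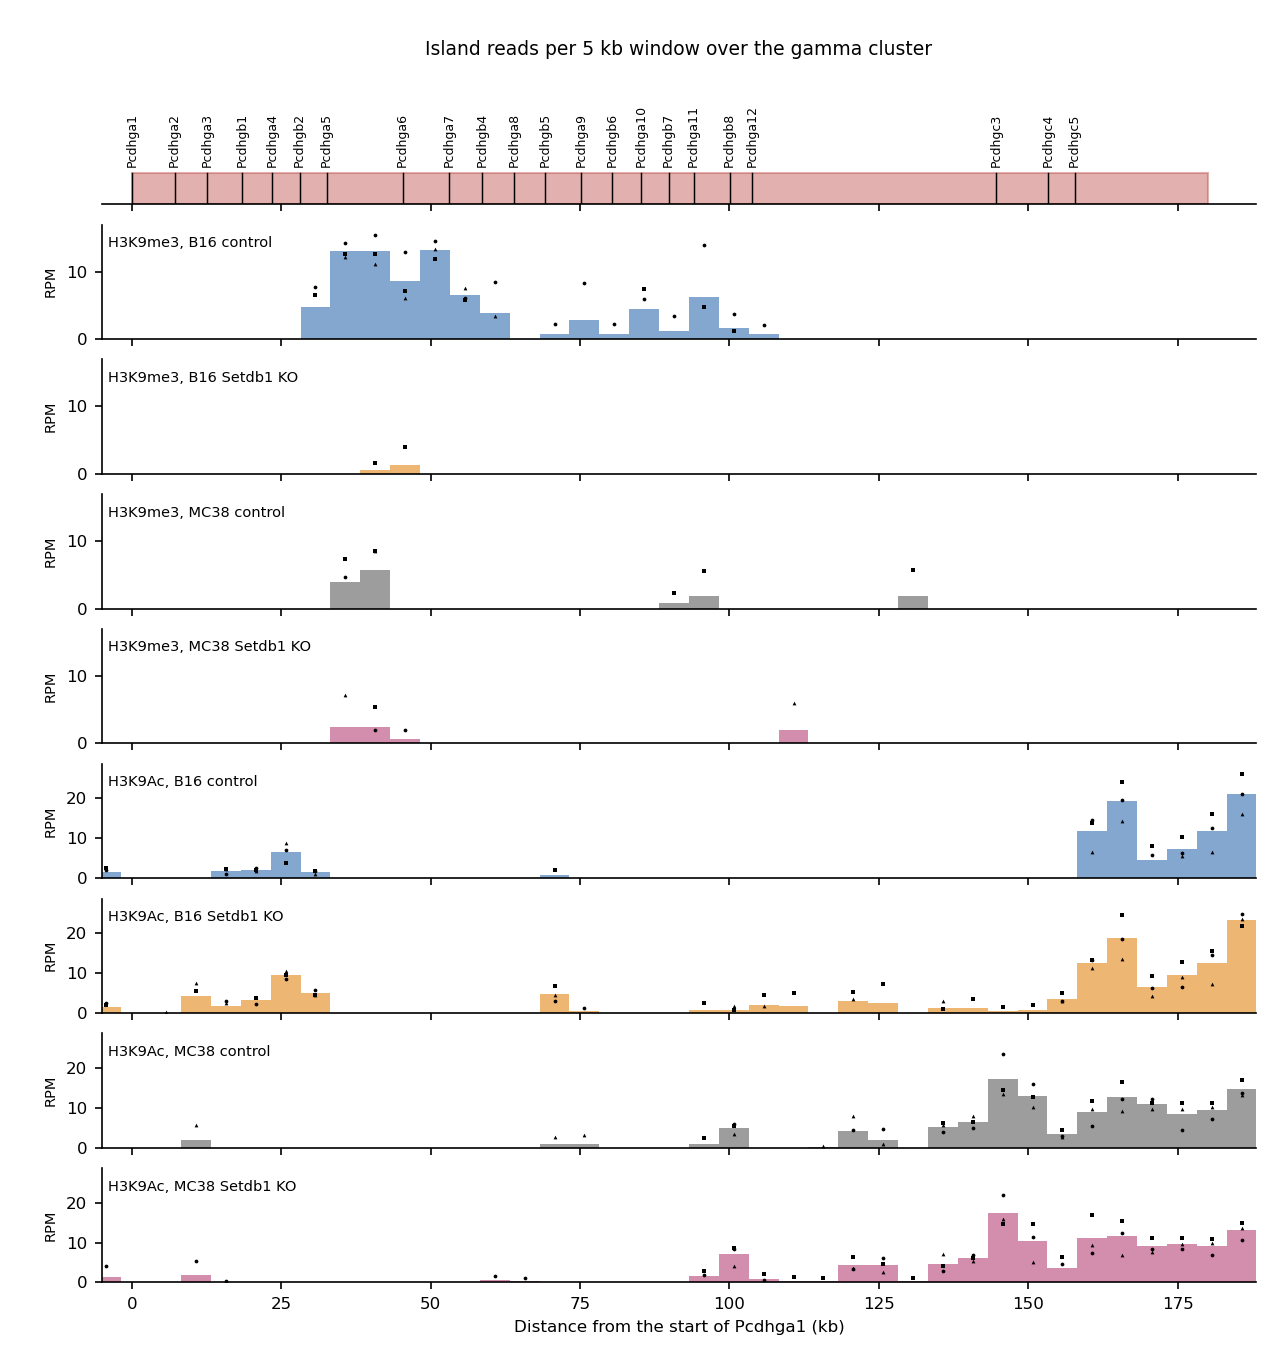
Level of both marks (RPM) in the 5 kb windows of the gamma cluster, by distance in kb from the start of Pcdhga1, with 1 row per mark and group. Bars are means of 3 libraries and points are libraries. H3K9me3 fills a run of windows in the 3 B16 controls, with H3K9Ac just before it in all B16 libraries, whereas H3K9Ac at Pcdhgc3 near the far end is seen in MC38 libraries.

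In MC38, a loss of H3K9me3 in the gamma cluster could not be judged, because the controls had little of the mark there. Of the 37 gamma windows, 5 had an island in any MC38 control and 0 in all 3. The H3K9me3 difference, KO minus control, had a median of 0 RPM over the 12 gamma windows, with 2 above 0 and 4 below. It was 0 over the beta windows and 0.521 RPM over the alpha windows. edgeR called 0 of 10 members (background 0.00522% higher and 0.0365% lower; 1 at an unadjusted p under 0.05; DESeq2 1, limma 0) and 0 of 96 windows (background 0.0148% higher and 0.0415% lower; 10 at an unadjusted p under 0.05; DESeq2 10, limma 1). Groups did not overlap at 4 windows that were lower in KO, against 1.96% of all windows tested, and at 2 that were higher, against 0.622%. Without MC38 KO replicate 3, which has the least H3K9me3 under islands, 3 windows were called higher, and without replicate 1 or 2 of that group 1 was.

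The beta window with the smallest p in MC38 was chr18:37290001-37295000, which holds the 5′ end of Pcdhb2. It carried 8.83, 7.10 and 8.14 RPM of H3K9me3 in B16 control, 6.52, 9.80 and 5.79 in B16 KO, no island in MC38 control and 6.10, 4.89 and 8.47 RPM in MC38 KO. Only the MC38 controls lacked the island. The KO effect in MC38 had an edgeR adjusted p of 0.0578, and the difference between the KO effects, B16 minus MC38, an adjusted p of 0.025. It was the 1 window of the locus called in that comparison (background 0.329% higher and 0.101% lower), against 12 at an unadjusted p under 0.05, 18 with DESeq2 and 3 with limma. The call of this window was lost with a replicate block, without B16 control replicate 2 or 3 and without B16 KO replicate 2 or 3, and 3 windows were called without MC38 KO replicate 3. For members, edgeR called 0 of 10 in that comparison (background 0.209% higher and 0.0522% lower; 3 at an unadjusted p under 0.05; DESeq2 0, limma 1).

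Between the control groups of the lines, H3K9me3 was called lower in MC38 at 3 beta windows and at no other window of the locus (background 2.94% lower and 4.18% higher of 269906 windows). These controls are those of the KO comparisons, so the same libraries enter both. The called windows are that of Pcdhb2 (adjusted p 0.00398), chr18:37395001-37400000 (adjusted p 0.0344) and chr18:37470001-37475000, which holds the 5′ end of Pcdhb15 (adjusted p 0.0403). The last held 8.15, 7.47 and 8.63 RPM in B16 control, 7.69, 7.53 and 5.61 in B16 KO, none in MC38 control and 5.78, 7.88 and 0 RPM in MC38 KO. In the Pcdhb15 5′ region itself the values were 3.64, 3.05 and 3.87 RPM in B16 control, 3.46, 3.32 and 1.29 in B16 KO, none in MC38 control and 2.59, 3.81 and 0 RPM in MC38 KO (adjusted p of the line difference 0.0942). No island was called at either region in the 3 MC38 controls, whereas 8 of the 9 other libraries had one.

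The count of 3 windows was not stable. It fell to 1 without B16 control replicate 2 or 3, any B16 KO library or any MC38 control library, was 5 without MC38 KO replicate 3, 8 when only the 6 control libraries entered the fit, and 0 with the replicate number as a block. DESeq2 called 16 windows and limma 8. In the gamma cluster the B16 and MC38 controls did not overlap at 5 windows, lower in MC38, against 13.2% of all windows tested, and the adjusted p of the window at chr18:37710001-37715000 was 0.0879. Of the 10 members, edgeR called 0 between lines (background 2.38% higher and 3.54% lower; 4 at an unadjusted p under 0.05; DESeq2 3, limma 4), and their groups did not overlap at 5, all lower in MC38 (background 16.6% lower and 9.92% higher).

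Few beta members carried H3K9me3 at the 5′ region, and at low level. Pcdhb6 held 0, 2.86 and 0 RPM in B16 control, no island in B16 KO, 0.896, 0.394 and 1.50 RPM in MC38 control and 2.08, 2.24 and 3.56 RPM in MC38 KO. The 2 MC38 groups did not overlap at this 1 of 10 members tested, which was higher in KO (background 0.647% higher and 2.1% lower), and the adjusted p of the KO effect was 1.00. Pcdhb10 held 2.59 and 3.18 RPM in 2 MC38 controls and 3.32 RPM in 1 MC38 KO library. Pcdhb22, the last beta member, held 4.93 RPM in B16 control replicate 1 only. Among alpha members, Pcdha12 had 2.14 RPM in 1 B16 control and 0.537 to 0.562 RPM in the 3 MC38 controls, and the C-type member Pcdhac2 1.69 RPM in 1 MC38 control and 2.40 RPM in 1 MC38 KO library.

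H3K9Ac marked different members in the 2 lines. In B16 control, the members with an island in all 3 libraries were Pcdha8, Pcdhb5, Pcdhb12, Pcdhb14, Pcdhb16, Pcdhgb1 and Pcdhgb2. In MC38 control they were Pcdhb5, Pcdhb16, Pcdhb17, Pcdhb18 and Pcdhb19, the pseudogene Pcdhgb8 and the C-type members Pcdhgc3, Pcdhgc4 and Pcdhgc5. Pcdhb5 and Pcdhb16 stood on both lists. Between the control groups edgeR called 5 members higher in MC38 and 3 lower, of 27 tested (background 3.98% higher and 6% lower of 30116 5′ regions). In windows it called 6 higher and 4 lower of 50 tested (background 4.56% and 6.4% of 201802).

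In the alpha cluster, H3K9Ac was present at the 5′ region of 1 member in all B16 libraries. Pcdha8 held 5.04, 2.49 and 4.85 RPM in B16 control, 4.09, 2.81 and 2.73 in B16 KO, none in MC38 control and 0.0863 RPM in 1 MC38 KO library. All 6 B16 libraries lay above all MC38 libraries, and the member was lower in MC38 with an adjusted p of 0.0165. Pcdha9 had islands in 1 B16 control, 1 MC38 control and 2 MC38 KO libraries (1.53 to 3.84 RPM), and the C-type members Pcdhac1 and Pcdhac2 had none. The window at chr18:37175001-37180000, inside the alpha cluster upstream of its shared end, was acetylated in 10 of 12 libraries, with 2.29 to 8.16 RPM. In the gap behind alpha, the window at chr18:37235001-37240000 held 4.81, 3.87 and 5.42 RPM in B16 control, against 4.88, 4.48 and 5.33 RPM in B16 KO, no island in MC38 control and 1.73 RPM in 1 MC38 KO library (adjusted p of the line difference 0.0511).

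In the beta cluster, acetylated members lay in the downstream part, apart from Pcdhb5. Pcdhb5 held 3.05, 1.89 and 4.08 RPM in B16 control, 2.46, 1.59 and 3.52 in B16 KO, 6.18, 4.01 and 5.00 RPM in MC38 control and 4.71, 2.85 and 3.80 RPM in MC38 KO. The control groups overlapped slightly, and the log2 fold change, MC38 against B16, was 0.75 ± 0.59 (SE; adjusted p 0.481). Pcdhb16 held 7.94, 6.63 and 6.82 RPM in B16 control, 7.46, 5.53 and 7.42 in B16 KO, 3.74, 3.45 and 3.87 RPM in MC38 control and 3.07, 3.53 and 0 RPM in MC38 KO. The control groups did not overlap, but with a log2 fold change of −0.95 ± 1.13 (SE) the adjusted p was 0.695. The spread in this test is estimated over all 12 libraries, including the MC38 KO library without an island here. Pcdhb12, with 5.44, 4.27 and 6.06 RPM in B16 control, had an island of 4.38 RPM in 1 MC38 control, and Pcdhb14, with 3.24, 2.06 and 5.36 RPM, one of 1.34 RPM.

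The next members behind Pcdhb16 had H3K9Ac in MC38 and little or none in B16. Pcdhb17 held no island in the 6 B16 libraries, 4.55, 2.46 and 4.26 RPM in MC38 control and 4.81, 2.73 and 3.87 RPM in MC38 KO (adjusted p of the line difference 0.00773). Pcdhb18 held none in B16, 4.06, 3.05 and 6.67 RPM in MC38 control and 5.81, 4.74 and 3.35 RPM in MC38 KO (adjusted p 0.00493). Their 5′ ends lie in the same window, and their regions can share reads of an island. Pcdhb19 held 2.55 RPM in 1 B16 KO library, 4.04, 2.35 and 4.74 RPM in MC38 control and 3.73, 2.63 and 3.00 RPM in MC38 KO, and missed the threshold (adjusted p 0.0798). Pcdhb21 was acetylated in replicates 1 and 2 of both MC38 groups (2.19 to 3.58 RPM), and Pcdhb22 in 2 MC38 KO libraries (1.75 and 3.00 RPM).

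**Figure D5:**
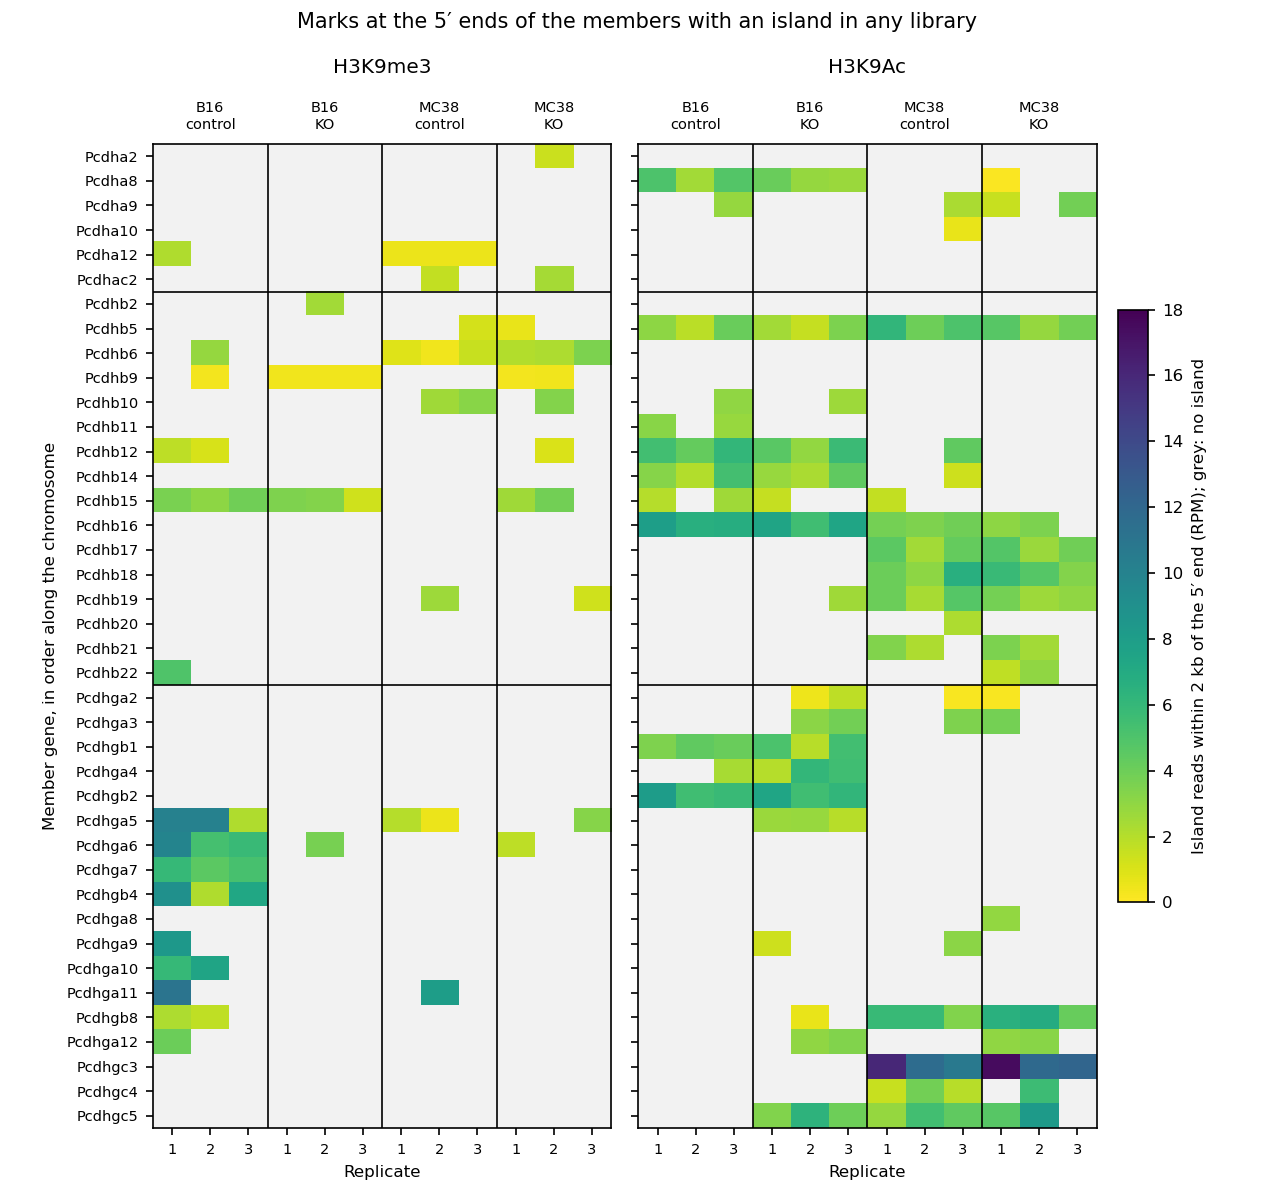
H3K9Ac and H3K9me3 levels (RPM) at the 5′ region of members with an island in any library, in genome order, with 1 column per library, the level as colour and grey where no island was called. B16 libraries are acetylated at Pcdha8, Pcdhb12, Pcdhb14, Pcdhgb1 and Pcdhgb2, MC38 libraries at Pcdhb17 to Pcdhb19, Pcdhgb8 and the C-type gamma members, and H3K9me3 at Pcdhga5 to Pcdhgb4 appears mainly in B16 control.

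Among gamma members, the 2 control groups were acetylated at opposite ends of the cluster. In B16, H3K9Ac stood at B-type members near the upstream end. Pcdhgb1 held 3.51, 4.42 and 4.14 RPM in B16 control, against 5.13, 1.95 and 5.46 RPM in B16 KO, and Pcdhgb2 8.07, 5.50 and 5.83 RPM and 7.41, 5.55 and 6.14 RPM. Neither had an island in any of the 6 MC38 libraries, and both were called lower in MC38 (adjusted p 0.00709 and 0.00155). The window of Pcdhga4 and Pcdhgb2 at chr18:37685001-37690000 was called with them (adjusted p 0.00204). The acetylated windows at chr18:37675001-37695000 end where the H3K9me3 windows of the B16 controls begin.

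In MC38, H3K9Ac stood at the downstream end, at the C-type members, which are the last variable exons before the constant exons. Pcdhgc3 held no island in the 6 B16 libraries, 15.97, 11.6 and 10.7 RPM in MC38 control and 17.5, 11.8 and 12.1 RPM in MC38 KO. These were the highest levels of H3K9Ac at any member, and the line difference had the smallest adjusted p of all members (9.8e-05). Pcdhgc4 held none in B16, 1.52, 3.85 and 1.94 RPM in MC38 control and 5.68 RPM in 1 MC38 KO library, and was not called (adjusted p 0.188).

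Pcdhgc5 was the C-type member on which B16 control and B16 KO differed. It held no island in the 3 B16 controls, 3.38, 6.37 and 3.94 RPM in B16 KO, 2.87, 5.48 and 4.38 RPM in MC38 control and 4.64, 8.21 and 0 RPM in MC38 KO. Only the B16 controls lacked the mark throughout. The line difference passed the test (adjusted p 0.0224), and the KO difference in B16 did not (adjusted p 0.504). Pcdhgb8 held no island in B16 control, 0.607 RPM in 1 B16 KO library, 5.88, 5.87 and 3.40 RPM in MC38 control and 6.54, 6.96 and 4.19 RPM in MC38 KO (adjusted p of the line difference 0.0362).

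Around Pcdhgc3 the acetylated windows of MC38 ran together. The window of Pcdhgc3 at chr18:37805001-37810000 held 23.4, 14.5 and 13.4 RPM in MC38 control and 21.9, 14.8 and 15.9 RPM in MC38 KO, against 1.55 RPM in 1 of 6 B16 libraries (adjusted p 0.0166). The next window held 10.2 to 15.9 RPM in MC38 control and none in B16 control (adjusted p 0.0325). Farther downstream, between the 5′ end of Pcdhgc5 and the shared 3′ end of the cluster, the lines did not separate. The window at chr18:37825001-37830000 held 19.5, 24.004 and 14.3 RPM in B16 control, 18.6, 24.6 and 13.6 in B16 KO, 12.1, 16.5 and 9.29 RPM in MC38 control and 12.3, 15.4 and 6.94 RPM in MC38 KO, with a log2 fold change between control groups of −0.61 ± 0.33 (SE; adjusted p 0.281). This window also holds an end of the lncRNA Gm29994. The region around that end held 18.8, 23.3 and 13.7 RPM in B16 control and 9.73, 14.6 and 7.86 RPM in MC38 control.

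Between the lines, the calls at Pcdha8, Pcdhgb2, Pcdhgc3, Pcdhb17 and Pcdhb18 were kept in all 20 alternatives tried, that at Pcdhgb1 in 19, at Pcdhgc5 in 16 and at Pcdhgb8 in 11. The number of windows called fell from 10 to 4 without B16 control replicate 1 and to 6 without replicate 2 or 3, and was 4 with the replicate number as a block, 19 with DESeq2 and 16 with limma. The 2 lines differ in tissue of origin. Of the markers tested, 5 of 10 for melanocytes and 2 of 5 for neurons (Map2 and Syt1) were also lower in H3K9Ac in MC38, beside 6% of all 5′ regions tested. In the other direction, 1 of 9 colon epithelium markers tested (Krt8) and 1 of 5 fibroblast markers tested (Col3a1) were higher, beside 3.98%. The summed neuron markers were 27.1 to 39.4 RPM in B16 control and 7.92 to 13.4 RPM in MC38 control, and the part of cell type in the protocadherin differences was not tested.

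In B16, the mean H3K9Ac level over the gamma cluster was higher in Setdb1 KO than in control, but no member or window passed the threshold. Over the span of the gamma cluster the level was 60.8, 71.8 and 42.8 RPM in B16 control, against 73.7, 132 and 87.0 RPM in B16 KO. The groups did not overlap, but the highest control (71.8 RPM) was close to the lowest KO library (73.7 RPM). The order of these libraries rests on their TMM factors (1.015 and 0.967), and with total island reads the groups overlap. MC38 control had 100.1, 106 and 105 RPM and MC38 KO 116, 132 and 80.8 RPM, which overlapped. The share of the gamma cluster under islands was 9.77, 11.1 and 7.44% in B16 control and 14.1, 29.3 and 21.3% in B16 KO. In 5′ regions alone it was 5.44 ± 1.00% and 16.4 ± 4.30% (mean ± SD, n = 3). Genome-wide, H3K9Ac islands covered 395 ± 24.3 Mb in B16 control and 443 ± 5.79 Mb in B16 KO, and the part of this difference in the gamma values was not tested. Alpha (12.7, 13.3 and 13.7 RPM against 10.4, 12.6 and 8.56 RPM) was lower in every B16 KO library, and beta overlapped.

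By member, the B16 groups did not overlap at Pcdhga5 and Pcdhgc5, 2 of 27 tested, both higher in KO, against 2.67% of all 5′ regions tested, and at 0 that were lower, against 5.99%. Pcdhga5 held no H3K9Ac island in B16 control, 2.68, 2.77 and 1.91 in B16 KO and none in MC38 (adjusted p 0.870). In the same 5′ region the H3K9me3 island of the 3 B16 controls was not called in any B16 KO library. Its neighbour Pcdhga4 held 2.39 RPM in 1 B16 control and 1.97, 6.10 and 5.50 RPM in B16 KO. Pcdhga12 and Pcdhga3 had islands in 2 of 3 B16 KO libraries (2.99 and 3.39 RPM, 3.15 and 3.85 RPM) and in no B16 control. Pcdhga12 had the same pattern in MC38, with 2.96 and 3.17 RPM in 2 KO libraries and no island in control, and Pcdhga3 had an island in 1 MC38 control (3.45 RPM) and 1 MC38 KO library (3.76 RPM).

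By window, the groups did not overlap at 3 gamma windows, higher in KO, against 4.61% of all windows tested, and at 0 that were lower, against 2.2%. The window of Pcdhga5 at chr18:37690001-37695000 held 1.77, 1.83 and 0.917 RPM in B16 control, against 5.86, 4.57 and 4.47 RPM in B16 KO, a log2 fold change of 1.72 ± 1.25 (SE; adjusted p 1.00). The window of Pcdhgb5 held 0, 2.06 and 0 RPM and 2.91, 6.84 and 4.38 RPM. The window of Pcdhgc4 and Pcdhgc5 held none and 2.90, 4.90 and 2.95 RPM (adjusted p 0.497). The median difference, B16 KO minus control, was 1.30 RPM over the 23 gamma windows tested, 21 of them above 0. It was −0.0967 RPM over 16 beta windows and −0.210 RPM over 7 alpha windows, beside 0 over all windows. Of the 37 gamma windows, 10 had an H3K9Ac island in any B16 control and 24 in any B16 KO library. A window without an island in B16 control could only rise or stay at 0, and neighbouring windows can share an island.

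In that comparison edgeR called 0 of 27 members (background 0.0697% higher and 0.0199% lower; 5 at an unadjusted p under 0.05; DESeq2 4, limma 1) and 0 of 50 windows (background 0.142% higher and 0.0178% lower; 9 at an unadjusted p under 0.05; DESeq2 11, limma 0). Without MC38 KO replicate 3, which enters the shared estimate of the spread, 1 member and 1 window were called. In MC38, edgeR called 0 members (background 0.0465% higher and 0.0199% lower; 4 at an unadjusted p under 0.05; DESeq2 1, limma 0) and 0 windows (background 0.05% higher and 0.0297% lower; 4 at an unadjusted p under 0.05; DESeq2 6, limma 0). The MC38 groups overlapped at every member (background 1.84% higher and 1.84% lower without overlap) and window tested (background 1.81% and 1.93%). The KO effects of the lines differed at 0 members (background 0.0731% higher and 0.0531% lower; 5 at an unadjusted p under 0.05; DESeq2 5, limma 0) and 0 windows (background 0.149% higher and 0.0649% lower; 12 at an unadjusted p under 0.05; DESeq2 16, limma 0). A different response of the 2 lines was thus not shown for H3K9Ac.

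Members with H3K9Ac in all B16 controls also had it in all B16 KO libraries. Pcdha8, Pcdhb5, Pcdhb12, Pcdhb14, Pcdhb16, Pcdhgb1 and Pcdhgb2 had islands in all 3 libraries of both groups, and the KO group added Pcdhga4, Pcdhga5 and Pcdhgc5. The log2 fold change, KO against control, was −0.36 ± 1.50 (SE) at Pcdha8, 0.05 ± 1.05 at Pcdhgb1 and −0.02 ± 0.72 at Pcdhgb2 (adjusted p 1.00 each). At Pcdhgc3 in MC38 it was 0.12 ± 0.31 (adjusted p 1.00). Standard errors of this size do not show that the levels were alike.

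The 2 marks shared few windows. In the B16 controls, 2 alpha, 15 beta and 5 gamma windows had H3K9me3 in all 3 libraries and 2, 4 and 8 had H3K9Ac in all 3, and none had both throughout. Counting an island in any B16 control, 3 beta and 2 gamma windows had both marks. Of the 58 members, 4 gamma members and Pcdhb15 had H3K9me3 in all 3 B16 controls, and none of them had H3K9Ac in all 3. Pcdhb15 did have H3K9Ac in 2 of these libraries (1.98, 0 and 2.54 RPM). How often the marks share windows over the genome was not computed. A window with both marks in all 3 libraries of a group occurred once, in the beta cluster of B16 KO.

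Genes that sit among the protocadherins or within 100 kb served as a local reference. No strand was given for them, so the end with more island reads of the mark was read, which may be the 3′ end. Taf7, a subunit of the general transcription factor TFIID between beta and gamma, held 10.8, 12.7 and 7.89 RPM of H3K9Ac in B16 control, 7.74, 10.6 and 7.88 in B16 KO, 7.18, 7.54 and 4.88 RPM in MC38 control and 9.61, 10.1 and 6.00 RPM in MC38 KO. Hdac3, a histone deacetylase downstream of gamma, held 9.05 to 10.0 RPM in B16 control and 9.85 to 12.7 RPM in MC38 control. Its region, chr18:37934971-37938971, also holds the far end of Diaph1. Diaph1, an actin regulator behind gamma, held 5.19 to 15.7 RPM and 8.85 to 10.1 RPM at its end next to the gamma cluster. The control groups overlapped at Hdac3 and at Diaph1. At Taf7 the B16 controls lay above the MC38 controls, as at 16.4% of all 5′ regions tested, and none of the 3 genes was called in any comparison. Gm24401, a small pseudogene inside the H3K9me3 block, held 12.3, 8.15 and 8.88 RPM of H3K9me3 in B16 control and 0, 5.48 and 0 RPM in B16 KO. Of the other neighbours, Gm20162 had H3K9me3 in all 12 libraries (1.66 to 9.09 RPM). H3K9Ac was present in all 12 at Gm29994 (6.63 to 23.3 RPM) and Mir6979 (8.07 to 20.9 RPM). It was also present at the end that Gm37013, Gm38666 and Gm38667 share with gamma (4.06 to 10.9 RPM). Gm6756 had H3K9me3 in 6 libraries (4.89 to 11.7 RPM) and Gm36858 H3K9Ac in 6 (0.242 to 3.08 RPM). None of them was called in any comparison.

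Related genes elsewhere in the genome were taken from lists. Of 12 non-clustered protocadherins, 7 were tested for H3K9Ac and 0 were called between the lines, with summed levels of 66.7 to 93.5 RPM in B16 control and 25.6 to 57.9 RPM in MC38 control, and none was tested for H3K9me3. Of 18 classical cadherins, 11 were tested for H3K9Ac and 3 were called, all lower in MC38 (Cdh9, Cdh10 and Cdh19; background 6% lower and 3.98% higher). Cdh19 held 23.03, 25.8 and 19.8 RPM in B16 control and no island in MC38. Of 21 regulators of the clustered protocadherins, such as Ctcf and the cohesin subunits Rad21 and Smc3, 16 carried H3K9Ac in all 12 libraries and 0 of 19 tested were called. No gene of these 3 lists was called for Setdb1 KO in either line or for either mark.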

How the data were processed

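The deposited files hold, for each library, SICER islands with the count of reads in each, which are whole numbers and not normalized. Per the submitters' processing notes, cutadapt, Bowtie2 2.1.0, SAMtools 0.1.8, SICER 1.1 and deepTools 3.1.1 were used with mm10. The treatment of reads that map to several places, which matters among such similar genes, and the input behind each island call are not given in the sources used here. Reads of an island were spread evenly over its length and added up per 5 kb window and per 5′ region (2 kb on both sides). Cluster levels were added up over its span, from the start of the first member to the end of the last. The table gives no strand for the members, so the 5′ end was taken as the lower coordinate, the end at which alpha and gamma members differ. For beta members this orientation is an assumption. Other genes took the strand where one was given, which held for 26794 of the 49554 genes. For the rest, the end with more island reads of the mark was read. That end can differ between the marks and can be the 3′ end. The lists and the shares over all 5′ regions follow this rule. Coordinates and symbols are those of the RefSeq table for GRCm38.

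The main test was edgeR 4.0.16 (quasi-likelihood, TMM scaling, trended dispersion) in R 4.3.3, with 1 fit per mark over all 12 libraries and all windows or genes with a mean of at least 10 reads, and a call at a Benjamini-Hochberg adjusted p under 0.05. Compared were the KO and control groups within B16 and within MC38, these 2 effects with each other, and the 2 control groups. Alternatives were DESeq2's size factors, total island reads, no filter, DESeq2 1.42.0, limma 3.58.1 on log2(RPM + 0.5), a replicate block, islands without the 25% with the fewest reads per kb, 6 libraries, and leaving out each library. The code was tested on simulated data. No fold change is given where a group had no island. The SE given is the size of the log2 fold change divided by the square root of edgeR's F statistic. For H3K9Ac, libraries of the same number deviated together (r = 0.228, 0.488 and 0.413 in B16, 0.123, 0.446 and 0.277 in MC38, KO with control, across windows), so the numbers pair them within a line. The block took the same replicate effect for both lines, so it does not model a pairing within each line. No H3K9Ac KO effect was called with the block or without it, so whether the pairing matters was not tested.

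Named with values were the C-type members, the first and last of each cluster, up to 4 members and windows per cluster, mark and contrast with the smallest p, neighbours within 100 kb with an island, and up to 3 genes per list. Left out were the neighbours Gm19035, Slc25a2 and Gm8242, with islands in at most 3 libraries. The members, lists and tests were chosen with earlier results of these data known. Other members and windows were named after their values were seen.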

Additional observations from a re-analysis of the deposited data

Results flagged for a closer look

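The beta window at chr18:37290001-37295000, which holds the 5′ end of Pcdhb2, was picked out because the H3K9me3 effect of Setdb1 KO differed between the lines by a test of the difference itself (edgeR, B16 minus MC38, adjusted p 0.025). It is 1 of 96 windows of the locus tested. No MC38 control had an island there, whereas the 3 MC38 KO libraries (6.10, 4.89 and 8.47 RPM) and all 6 B16 libraries (5.79 to 9.80 RPM) had one. In the 5′ region of Pcdhb2 itself, H3K9me3 was called in 1 of 12 libraries, B16 KO replicate 2, with 2.49 RPM, so in the others the island lay outside that region. The call was lost with a replicate block and without B16 control replicate 2 or 3 or B16 KO replicate 2 or 3.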

How the results depend on the processing

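In the order KO in B16, KO in MC38, difference of KO effects, MC38 against B16, H3K9me3 windows numbered 0, 0, 1 and 3 in edgeR, 14, 10, 18 and 16 with DESeq2, and 2, 1, 3 and 8 with limma. H3K9Ac windows numbered 0, 0, 0 and 10 in edgeR, 11, 6, 16 and 19 with DESeq2, and 0, 0, 0 and 16 with limma. H3K9me3 members numbered 0 in all 4 comparisons with edgeR, 1, 1, 0 and 3 with DESeq2, and 2, 0, 1 and 4 with limma. H3K9Ac members numbered 0, 0, 0 and 8 with edgeR, 4, 1, 5 and 12 with DESeq2, and 1, 0, 0 and 10 with limma. Leaving out 1 library gave 0 to 1, 0 to 3, 0 to 3 and 1 to 5 H3K9me3 windows, 0 to 1, 0 to 1, 0 to 1 and 4 to 11 H3K9Ac windows, and for members 0 throughout except 0 to 1 for H3K9me3 between lines, 0 to 1 for H3K9Ac KO in B16 and for the difference, and 6 to 9 for H3K9Ac between lines. With only the 6 libraries contrasted, 8 H3K9me3 windows and 3 members were called between lines. With stricter islands, 1 H3K9Ac window was called for KO in MC38 and 1 for the difference, and the alpha H3K9me3 difference, B16 KO minus control, reversed to −6.90 RPM. Read over whole genes, 14 members had higher H3K9Ac in MC38, 12 of them gamma genes whose annotated spans overlap and so share reads (over all whole genes tested, 3014 of 33363 were higher and 3171 lower).

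With a replicate block, H3K9me3 windows numbered 0 for the difference and 0 between lines, and H3K9Ac windows between lines 4; it changed no other count by more than 1.5 times. For H3K9me3 a pairing by number was less clear (same-number r 0.195, 0.136 and 0.019 in B16, 0.291, 0.210 and −0.217 in MC38). In B16 each number had its highest r with its own, though by 0.019 against 0.017 at number 3. In MC38 this held for number 1 only. The cause of these changes was not tested. Islands depend on depth, and a level below the calling limit of a library reads as 0, so an absent island is not an absent mark.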
